A study of Mus musculus with 4 samples.

Results

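Ribosome biogenesis and nucleolar genes were described in CD4+ T cells of Irf4-/- and wild-type mice 2 days after activation. The group is a list of 38 gene symbols, each read from its brightest array probe, among 45526 genes or unnamed transcripts on the array. All 38 had a probe, and 37 were tested among 20505 genes in all, each of the 37 being well above background on all 4 arrays. Utp18 was not well above background on any array and has no value below. Naive CD4+ cells, positive for CD62L and negative for CD44, had been sorted from spleens of male C57BL/6 mice that were Irf4-/- (2 arrays) or wild type (2 arrays), whose age the labels do not state. Both groups received the same activation, with an antibody to CD3e at 1 µg per ml and mitomycin C-treated syngeneic antigen-presenting cells, with 100000 T cells in a well. Total RNA came from living CD4+ cells, which were sorted a further time. The labels name 2 independent experiments per genotype and do not say whether mice were pooled, so p-values measure the spread between these samples.

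Ribosomes are assembled in the nucleolus, where RNA polymerase I transcribes the ribosomal RNA precursor. Small nucleolar ribonucleoproteins (snoRNPs) modify that precursor, and separate sets of assembly factors fold and cut it into the small and the large subunit. Activated T cells enlarge their nucleoli and make ribosomes as they grow and divide, and the transcription factor MYC is a known activator of these genes. Irf4, a transcription factor induced through the T cell receptor, is the gene that the Irf4-/- mice lack.

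The promoters of Utp20 and Nop16 are shown because these genes had the most negative and the most positive genotype difference among the members, and that of Ddx21 because it holds the same E-box variant as Nop16. Of the 6 members with the smallest p and a window, these 3 held a motif match, while Cad, Tfb2m and Wdr12, which are not printed, held no match to any of the 4 motifs searched. The sequences are RefSeq's (build GRCm38.p6) and run from 250 bases before to 50 bases after the annotated start. Utp20 lies at chr10:88826765-88827064, Nop16 at chr13:54590025-54590324 and Ddx21 at chr10:62602249-62602548, all on the minus strand. Capitals mark matches to the E-box CACGTG, its variant CACGCG or the IRF core AANNGAAA.
Utp20: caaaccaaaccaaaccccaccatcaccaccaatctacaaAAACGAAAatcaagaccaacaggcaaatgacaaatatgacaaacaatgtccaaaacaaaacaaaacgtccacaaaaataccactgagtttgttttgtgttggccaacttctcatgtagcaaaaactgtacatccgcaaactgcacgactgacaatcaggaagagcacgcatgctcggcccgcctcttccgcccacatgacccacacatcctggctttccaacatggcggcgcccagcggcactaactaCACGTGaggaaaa
Nop16: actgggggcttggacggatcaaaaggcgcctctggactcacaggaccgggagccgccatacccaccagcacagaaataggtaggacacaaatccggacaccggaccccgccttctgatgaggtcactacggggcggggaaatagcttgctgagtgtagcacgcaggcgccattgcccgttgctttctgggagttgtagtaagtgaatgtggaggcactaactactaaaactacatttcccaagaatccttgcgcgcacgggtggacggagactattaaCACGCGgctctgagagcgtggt
Ddx21: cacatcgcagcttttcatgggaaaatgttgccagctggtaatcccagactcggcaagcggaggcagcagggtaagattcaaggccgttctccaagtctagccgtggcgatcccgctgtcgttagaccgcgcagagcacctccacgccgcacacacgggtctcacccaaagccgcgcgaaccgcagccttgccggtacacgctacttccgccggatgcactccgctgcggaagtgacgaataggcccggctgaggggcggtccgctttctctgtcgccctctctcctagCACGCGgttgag
Utp20 held 1 E-box at position 288 of the window, counted from its 5′ end, and 1 IRF core at position 40. In Nop16 and Ddx21 the E-box variant began at positions 279 and 289. Promoter windows were on hand for 32 members, and each motif was searched on both strands. The E-box was in the window of 6 of the 32 members (18.8%), against 8.09% of all 27025 genes with a window, and its variant in 11 (34.4%), against 10.5%. For the IRF core the shares were 28.1% of members and 26.7% of all genes, while the AP-1 core TGANTCA, which 8.97% of genes hold, matched no member window. The E-box and its variant share the letters CACG. Among tested members the median log2 difference between genotypes was -0.14 for 5 with the E-box and -0.06 for 26 without it. It was -0.03 for 11 with the variant and -0.14 for 20 without it, and -0.06 for 9 with the IRF core and -0.11 for 22 without it. A match describes letters in the window and not a bound site.

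No member of the group passed the test between genotypes. A level here is log2 of a probe's signal over the 75th percentile of its array, and a difference is Irf4-/- minus wild type on that log2 scale. In limma 0 members were called higher, against 0.493% of all tested genes, and 0 were called lower, against 0.244%. At an unadjusted p under 0.05 there were also 0 members, against 11.4% of all genes. Adjusted p ran from 0.642 (Utp20) to 0.999 (Bop1). Of the 37 differences, 27 (73.0%) were under 0.2 in size, against 54.1% of all tested genes, and their median size was 0.11 against 0.18. The 2 sets are unlike in brightness. All 37 members were well above background on all 4 arrays, while the tested genes include some that were so in only 1 genotype. The members' differences spanned -0.46 to 0.32. A missed threshold does not show equal levels, because the 95% confidence intervals of single members reached from -1.11 (2.15-fold lower) to 0.84 (1.79-fold higher).

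More members lay below 0 than above it. Negative differences numbered 29 (78.4%), against 53.3% of all tested genes, and their median was -0.06 against -0.02 for all. Leaving out 1 array set that median to -0.19 (Irf4-/- replicate 1 left out), 0.03 (Irf4-/- replicate 2), 0.02 (wild-type replicate 1) or -0.23 (wild-type replicate 2). The number of negative members was then 32, 16, 15 and 33. Each removal sets 1 array from 1 slide row against 2 arrays from both rows. Row 2 was below row 1 for all 37 members, by a median of -0.23. Within rows, the members' median genotype difference was -0.12 in row 1 and -0.09 in row 2. The part of the row difference in the sign changes was not tested. Scaling arrays to their medians moved the median of all genes by over 0.1, to -0.13, and 35 members were then negative. Relative to the median of all tested genes, the members' median was -0.04, and it was -0.11 with normexp, -0.03 with quantile normalization and -0.18 without the filter on dim probes, and ran from -0.20 to 0.03 with an array left out. Both Irf4-/- arrays lay below both wild-type arrays for 9 members (24.3%), against 21.3% of all tested genes. Both lay above for 1 (2.70%), against 17.9%. The arrays of the 2 genotypes overlapped for the other 27.

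**Figure D1:**
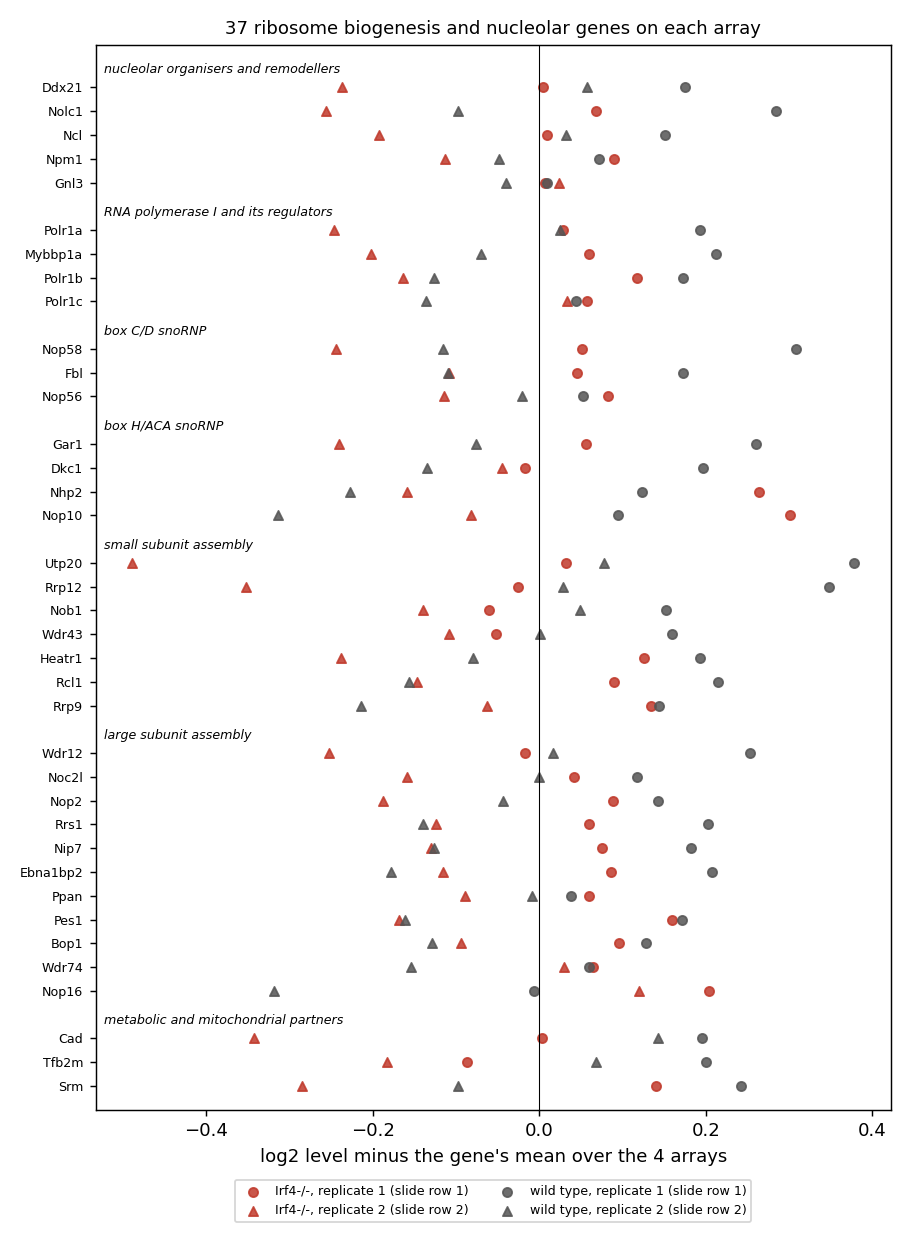
Log2 level of each of the 37 tested members on each array, minus the gene's mean over the 4 arrays (x axis), with genes grouped by role down the page. Red marks are Irf4-/- arrays and grey marks wild-type arrays, circles are slide row 1 and triangles slide row 2; within a genotype circles lie to the right of triangles for every gene but Gnl3 in Irf4-/- cells, and the colours overlap for 27 of 37.

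Most members differed more between slide rows than between genotypes. All arrays shared 1 slide and 1 scan, with replicate 1 of each genotype in slide row 1 and replicate 2 in row 2. The labels do not say which arrays came from 1 experiment. Slide row therefore cannot be told apart from differences between samples or experiments. Averaged over genotypes, the level in row 2 was below that in row 1 for all 37 members, against 59.2% of all tested genes. Within Irf4-/- arrays this held for 36 of 37, the exception being Gnl3, and within wild-type arrays for 37 of 37. The median row difference was -0.23 for the members and -0.06 for all tested genes, and single members ranged from -0.41 to -0.02. For 26 of 37 members the row difference was larger in size than the genotype difference, as it was for 51.9% of all tested genes. Within each row the genotype difference can be read without that offset. Its median was -0.12 in row 1 and -0.09 in row 2, against 0.006 and -0.04 for all tested genes. In both rows 21 members (56.8%) were negative, against 33.5% of all tested genes, while 5 were positive in both and 11 had opposite signs. With the row as a block the SEs of the members narrowed to 0.12 to 0.15, against 0.16 to 0.25 without it. In limma with that block 0 members were called (adjusted p 0.302 to 0.997). Nor was any gene of the whole table called there, so that count is not a result about the members. Utp20 and Rrp12 then had an unadjusted p of 0.0408 and 0.0487. With this block an unadjusted p under 0.05 was more frequent over all tested genes than among the members. Slide column cannot be told apart from genotype, since both wild-type arrays lay in column 1 and the Irf4-/- arrays in columns 3 and 2.

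**Figure D2:**
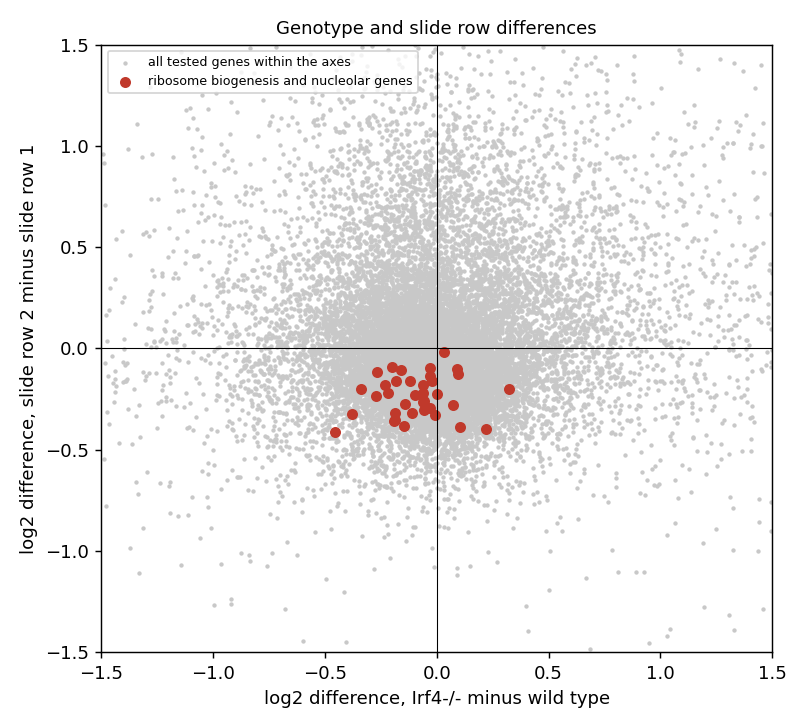
Log2 difference between slide row 2 and row 1 (y axis) against the log2 difference between Irf4-/- and wild type (x axis), 1 point per tested gene within the axes, with members in red and all tested genes in grey. All 37 members lie below 0 on the row axis, while on the genotype axis they spread from -0.46 to 0.32.

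Among genes that organise the nucleolus, 4 of 5 differences were negative and the median was -0.18. Ncl encodes nucleolin, an abundant RNA-binding protein of rRNA transcription and early processing. Its level was 7.19 and 6.98 on the Irf4-/- arrays, against 7.33 and 7.21 on the wild-type arrays. Both Irf4-/- arrays thus lay below both wild-type arrays, by a margin of 0.02 at the closest pair, and the difference was -0.18 (95% interval -0.65 to 0.28, adjusted p = 0.868). Ddx21, a DEAD-box RNA helicase that acts in RNA polymerase I transcription and rRNA processing, was at 3.93 and 3.69 in Irf4-/- cells, against 4.10 and 3.99 in wild type. Its arrays did not overlap either, with a difference of -0.23 (interval -0.71 to 0.24, adjusted p = 0.808). Nolc1, a chaperone of snoRNPs, was at 5.09 and 4.77 in Irf4-/- cells, against 5.31 and 4.93 in wild type. There Irf4-/- replicate 1 exceeded wild-type replicate 2, so the groups overlapped and the difference of -0.19 showed only within rows (-0.22 and -0.16). Npm1, which encodes the histone and pre-ribosome chaperone nucleophosmin, differed by -0.02 (interval -0.49 to 0.44). Gnl3, which encodes the nucleolar GTPase nucleostemin, differed by 0.03 with the lowest SE of the group (0.16), at 1.44 and 1.46 in Irf4-/- cells, against 1.45 and 1.40 in wild type.

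RNA polymerase I itself showed no common direction. Polr1a, the largest subunit, was at 2.68 and 2.40 in Irf4-/- cells, against 2.84 and 2.68 in wild type, and differed by -0.22 (interval -0.72 to 0.28, adjusted p = 0.844). Irf4-/- replicate 1 and wild-type replicate 2 coincided to within 0.01, so its groups touched. Polr1b, the other large catalytic subunit, differed by -0.05 (interval -0.59 to 0.49), and Polr1c, which RNA polymerase III shares, by 0.09 (interval -0.36 to 0.54). A further Polr1c probe read 3.21 and 3.17 in Irf4-/- cells, against 2.95 and 2.86 in wild type, a difference of 0.28. Mybbp1a, a nucleolar protein of rRNA synthesis and processing, was at 5.99 and 5.73 in Irf4-/- cells, against 6.14 and 5.86 in wild type, and differed by -0.14 (interval -0.67 to 0.38).

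Of the 7 snoRNP proteins, 5 had a negative difference and none was called. Box C/D particles methylate the ribose of target bases. Their methyltransferase Fbl was at 7.72 and 7.57 in Irf4-/- cells, against 7.85 and 7.57 in wild type, a difference of -0.06 that was present in row 1 (-0.13) and near 0 in row 2. The core scaffold proteins Nop58 and Nop56 differed by -0.19 and -0.03. For Nop58 all 4 probes were negative, from -0.23 to -0.15, while a further Nop56 probe read 0.16, opposite in sign to the brightest one, and Nop56 was also positive with normexp background correction. Box H/ACA particles convert uridine to pseudouridine and also occur in telomerase. Dkc1, the pseudouridine synthase, was at 0.62 and 0.59 in Irf4-/- cells, against 0.84 and 0.50 in wild type, with both Irf4-/- arrays between the wild-type arrays. Its partner Gar1 differed by -0.18 (interval -0.74 to 0.38). The remaining core proteins had positive values, Nhp2 at 0.10 and Nop10 at 0.22. Nop10 was at 5.67 and 5.28 in Irf4-/- cells, against 5.46 and 5.05 in wild type, and was 0.21 and 0.23 higher within rows 1 and 2. Across all 4 arrays its groups overlapped and the interval ran from -0.40 to 0.84 (adjusted p = 0.896).

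Small subunit assembly held the most negative difference of the group. Utp20, a large scaffold of the small subunit processome, was at 1.08 and 0.55 in Irf4-/- cells, against 1.42 and 1.12 in wild type. Both Irf4-/- arrays lay below both wild-type arrays, with a gap of 0.05 between the nearest arrays, and the Irf4-/- arrays themselves were 0.52 apart. The difference was -0.46 ± 0.25 (SE, 1.37-fold lower, interval -1.11 to 0.19, adjusted p = 0.642), or -0.35 in row 1 and -0.57 in row 2. Rrp12, a factor of small subunit maturation and export, was at 3.91 and 3.58 in Irf4-/- cells, against 4.28 and 3.96 in wild type. Its difference of -0.38 ± 0.22 (SE, 1.30-fold lower, interval -0.94 to 0.19, adjusted p = 0.666) was -0.37 in row 1 and -0.38 in row 2, and a dimmer Rrp12 probe read -0.27. Nob1, the endonuclease of the last cleavage of small subunit rRNA, was at 1.97 and 1.89 in Irf4-/- cells, against 2.19 and 2.08 in wild type. Wdr43, a processome protein that also contacts rRNA transcription, was at 3.65 and 3.59 in Irf4-/- cells, against 3.86 and 3.70 in wild type. These genotypes did not overlap for either gene, with differences of -0.20 (adjusted p = 0.825) and -0.16 (adjusted p = 0.892). Heatr1, which links RNA polymerase I transcription to processing, differed by -0.11, and Rcl1, a cyclase-like processome protein, by -0.06. Rrp9, a protein of the box C/D particle that binds the precursor early, was the 1 positive member, at 0.07 (interval -0.47 to 0.61). The 7 tested members of this role had a median of -0.16, and 6 were negative.

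Large subunit assembly held the most positive difference and a median near 0. Nop16, an assembly factor of the large subunit, was at 3.43 and 3.35 in Irf4-/- cells, against 3.22 and 2.91 in wild type. It was the 1 member with both Irf4-/- arrays above both wild-type arrays, by 0.21 in row 1 and 0.44 in row 2. The difference was 0.32 ± 0.19 (SE, 1.25-fold higher, interval -0.17 to 0.82, adjusted p = 0.679). Bop1, Pes1 and Wdr12 encode the PeBoW complex, which acts in large subunit rRNA processing. Wdr12 was at 3.51 and 3.28 in Irf4-/- cells, against 3.78 and 3.55 in wild type, a difference of -0.27 in each row (interval -0.77 to 0.23, adjusted p = 0.774), and its other probes read -0.27 and -0.40. Its partners did not share that value, Pes1 being at -0.01 (interval -0.58 to 0.56) and Bop1 at 0.001 (interval -0.50 to 0.50). Bop1 was at 4.88 and 4.69 in Irf4-/- cells, against 4.91 and 4.66 in wild type, so that each row matched to within 0.04. Of the other factors, Noc2l, homologous to a yeast assembly factor, differed by -0.12, and Nop2, an rRNA cytosine methyltransferase, by -0.10. Rrs1, Nip7, Ebna1bp2 and Ppan, all named for roles in large subunit assembly in yeast or mammals, lay between -0.06 and -0.03. Wdr74, which acts late in large subunit processing, was at 0.09 (interval -0.36 to 0.55). The 11 members had a median of -0.03, with 8 negative and 3 positive.

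**Figure D3:**
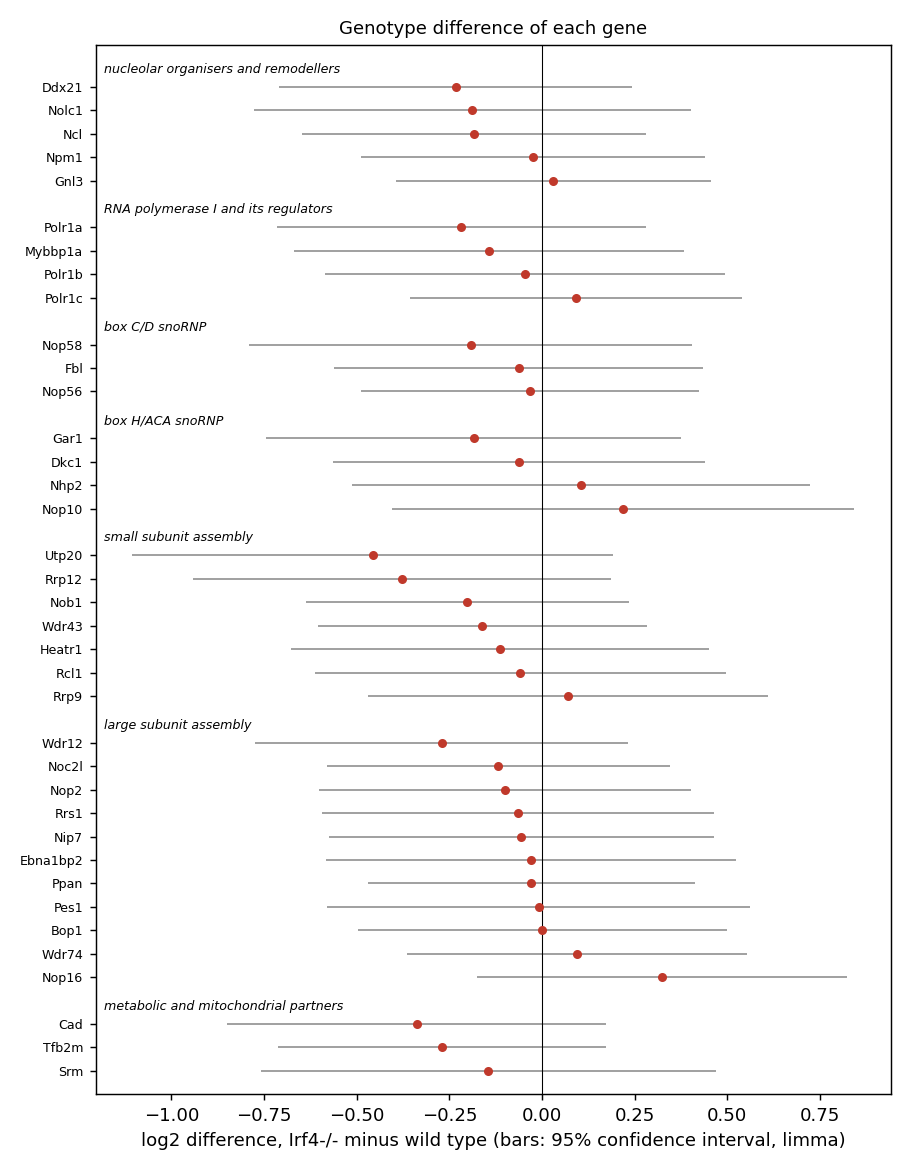
Log2 difference between Irf4-/- and wild type for each tested member (points) with limma's 95% confidence interval (bars), grouped by role and ordered by difference within a role. All 37 intervals include 0, with Utp20 at -0.46 and Nop16 at 0.32 as the outermost points.

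The 3 members outside the nucleolus were all negative. Cad, the enzyme of the opening steps of pyrimidine synthesis, was at 3.70 and 3.35 in Irf4-/- cells, against 3.89 and 3.84 in wild type. The genotypes did not overlap, and the difference of -0.34 ± 0.20 (SE, 1.26-fold lower, interval -0.85 to 0.17, adjusted p = 0.670) was -0.19 in row 1 and -0.49 in row 2. Tfb2m, a mitochondrial transcription factor, was at 0.37 and 0.28 in Irf4-/- cells, against 0.66 and 0.53 in wild type. Its difference of -0.27 (interval -0.71 to 0.17, adjusted p = 0.718) was much alike in both rows, at -0.29 and -0.25. Srm, spermidine synthase, differed by -0.14 (interval -0.76 to 0.47), and 1 of its further probes had the opposite sign, at 0.07.

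Probes of 1 gene mostly agreed in size. The members had 64 probes, of which 63 were above background on all 4 arrays and 19 genes had more than 1 such probe. All probes had 1 sign for 13 of these genes and differed in sign for 6, namely Npm1, Nop56, Rcl1, Pes1, Ebna1bp2 and Srm. The median gap between the brightest and a further probe was 0.04 and the largest 0.32, and over all probes the differences ran from -0.51 to 0.32. The lowest was a dimmer probe of Ncl, which was -0.62 in row 1 and -0.39 in row 2.

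Members also carry the small nucleolar RNAs (snoRNAs) that the pathway uses. In RefSeq 7 of the 38 members contain 20 snoRNA genes, with 5 in Nop56, 4 in Nop58, 3 each in Gnl3 and Wdr43, 2 each in Ncl and Ppan and 1 in Dkc1. The host members had a median difference of -0.06, and the 30 other tested members -0.08. Noncoding snoRNA host transcripts and the large rRNA were read as well, and were picked after the files were seen. Rn28s1, a ribosomal RNA gene entry, was at 10.25 and 10.00 in Irf4-/- cells, against 10.02 and 9.99 in wild type, and differed by 0.12 (adjusted p = 0.939). Of 12 tested snoRNA host transcripts 11 had a negative difference and 0 passed the test. Their median was -0.18, the lowest was Snhg4 at -0.36 (adjusted p = 0.671), and Snhg15 was the 1 positive value, at 0.51 (adjusted p = 0.578).

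Wider lists of the pathway held no called gene either. They covered 361 genes in 12 lists, of which 355 were tested and 0 were called higher (0.493% of all tested genes) or lower (0.244%) by limma. An unadjusted p under 0.05 was found for 5 (1.41%), against 11.4% of all tested genes. Small subunit processome and pre-40S genes had a median of -0.06 with 35 of 46 negative, from Utp14a at -0.28 to Ddx49 at 0.16. For pre-60S assembly the median was -0.04 with 32 of 47 negative, from Urb1 at -0.45 (adjusted p = 0.577) to the export adaptor Nmd3 at 0.30. Other RNA polymerase I genes split evenly, 8 against 8, with a median of -0.02. Their outermost genes were the termination factor gene Ttf1, at -1.95 and -1.43 in Irf4-/- cells, against -1.23 and -1.10 in wild type (difference -0.52, adjusted p = 0.530), and the activator gene Ubtf at 0.25. RNA polymerase III genes had a median of -0.03 (14 of 22 negative), from Polr3f at -0.48 to Polr3d at 0.20. For snoRNP assembly and rRNA modification it was -0.06 (12 of 17 negative), from Nufip1 at -0.30 to Trmt112 at 0.31. The RNA exosome was at -0.005 (7 of 14 negative), from Mphosph6 at -0.21 to Exosc4 at 0.12.

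Ribosomal proteins themselves lay slightly on the other side of 0. Small subunit proteins had a median of 0.07 with 30 of 31 positive, and large subunit proteins 0.05 with 38 of 46 positive. With arrays scaled to their medians these became -0.04 and -0.05. Both were also negative without Irf4-/- replicate 1 or wild-type replicate 2, removals that unbalance the slide rows. Single values were narrow, from Rps4x at -0.04 to Rps7 at 0.16 and from Rpl13a at -0.12 to Rpl34 at 0.18. Mitochondrial ribosomal proteins had a median of -0.05 (50 of 80 negative), from Mrpl1 at -0.35 to Mrps6 at 0.40. The row difference found in the members recurred here, with medians of -0.20 for small subunit, -0.18 for large subunit and -0.25 for mitochondrial proteins. It was not particular to these lists. Row medians were below 0 in all 12 lists, from -0.26 for purine and pyrimidine synthesis to -0.003 for the MYC network. They were -0.16 for polyamine and -0.09 for RNA polymerase III genes, and -0.06 for all tested genes.

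Regulators and suppliers of ribosome production held no called gene either. Myc was at 2.55 and 2.46 in Irf4-/- cells, against 2.43 and 2.34 in wild type, a difference of 0.12 (interval -0.32 to 0.55, adjusted p = 0.935) that was alike in both rows and without overlap between genotypes. In the MYC network (10 of 12 tested, 7 negative, median -0.18) the antagonist gene Mxi1 was at 2.77 and 2.88 in Irf4-/- cells, against 3.47 and 4.05 in wild type (difference -0.93, adjusted p = 0.234). Its relative Mxd4 differed by 0.68 (adjusted p = 0.424). Purine and pyrimidine synthesis, to which Cad belongs, had a median of -0.10 with 14 of 18 negative, from Pfas at -0.48 (adjusted p = 0.555) to Umps at 0.20. Polyamine genes, to which Srm belongs, split 4 against 4. Odc1, the ornithine decarboxylase that makes putrescine, from which Srm makes spermidine, was at 6.82 and 6.34 in Irf4-/- cells, against 5.52 and 5.36 in wild type. This difference of 1.14 ± 0.23 (SE, interval 0.55 to 1.73, adjusted p = 0.138) did not pass here, and Odc1 and Mxi1 passed with normexp background correction (adjusted p = 0.00265 and 0.0136) and with trend and robust settings (0.00428 and 0.0213). Paox, a polyamine oxidase gene, was at -0.48.

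**Figure D4:**
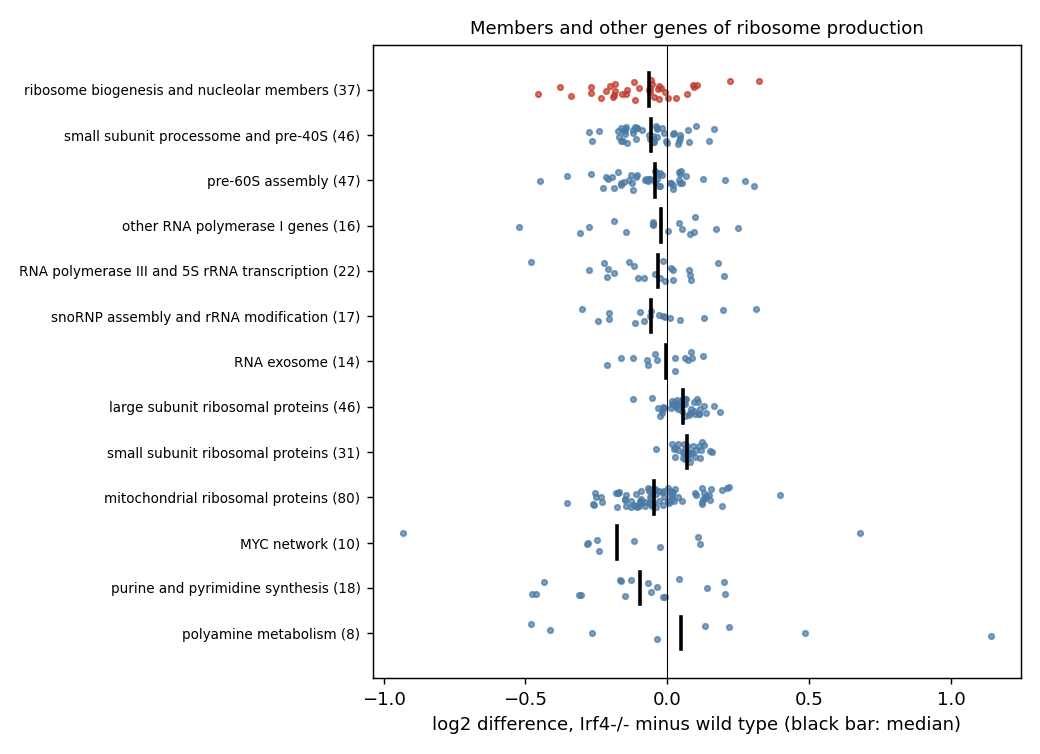
Log2 difference between Irf4-/- and wild type for the members (red) and for 12 lists of other genes of ribosome production (blue), 1 point per tested gene, with the number tested in brackets and black bars for medians. Members centre on -0.06, ribosomal proteins on 0.05 to 0.07, and Odc1 at 1.14 and Mxi1 at -0.93 stand farthest out.

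Checks of the arrays as a whole touch these values in few places. Of 56605 probes, 25677 to 28725 exceeded background clearly on each array. Arrays of 1 genotype correlated at r = 0.989 (Irf4-/-) and 0.992 (wild type) across tested genes. Irf4 was at 4.23 and 4.04 in Irf4-/- cells, against 5.03 and 4.74 in wild type, a difference of -0.75 ± 0.20 (SE, adjusted p = 0.231). The sources used here do not place its probes relative to the deleted part, so the signal is no check of the deletion. All 8 CD4 T cell markers were above background on all 4 arrays. Their median difference was 0.04, with 4 negative and 4 positive. Cd5 was higher in Irf4-/- cells, at 7.22 and 7.26, against 6.43 and 6.33 in wild type. Cd28 was lower, at 5.54 and 5.38 in Irf4-/- cells, against 6.00 and 5.87 in wild type. Of 14 B cell markers 12 were tested, 10 positive and 1 called (Fcmr), and their summed linear level was 18.4 and 12.5 on the Irf4-/- arrays, against 6.12 and 3.70 on the wild-type arrays. Of 16 myeloid and dendritic markers 5 were tested, 3 positive and 2 negative, with a median difference of 0.007. The markers summed to 66.8 and 82.8 on the Irf4-/- arrays, against 66.5 and 82.7 on the wild-type arrays. Most of each sum was Siglech alone, at a level of 5.79 and 6.17 in Irf4-/- cells, against 5.77 and 6.13 in wild type. NK markers (3 of 5 tested, median 1.44) summed to 11.5 and 8.92 on the Irf4-/- arrays, against 5.65 and 5.49 on the wild-type arrays. The brightest on the Irf4-/- arrays was Eomes, at 2.77 and 1.98, against 1.40 and 0.47 in wild type. Klrd1 was also higher in Irf4-/- cells, while Klrk1 was lower, at 0.82 and 0.40, against 1.23 and 1.48. Ncr1 was not above background on any array, and Klrb1c only on replicate 1 of each genotype. Erythroid markers (3 of 5 tested, median 0.95) summed to 0.865 and 1.76 on the Irf4-/- arrays, against 0.765 and 0.686 on the wild-type arrays. Of the CD8 markers only Cd8b1 was tested, at -0.98, and the pair summed to 4.76 and 4.45 on the Irf4-/- arrays, against 8.77 and 9.29 on the wild-type arrays. The part of other cells in the members' values was not tested, and fewer cells of a type cannot be told apart from less RNA per cell.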

How the data were processed

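Total RNA of 2 Irf4-/- and 2 wild-type samples was measured on Agilent mouse arrays with 1 dye (Cy3), 1 array per sample. Per the file headers, the authors extracted spot intensity with Feature Extraction 11.0.1.1, with background subtracted after spatial detrending and no normalization between arrays. Version 9.1 stands in the submitters' processing notes. The deposited table of log2 values was found, set against the scanner values, to equal log2 intensity minus the array's 75th percentile, centred per probe on the 4 arrays up to a small shift per array, and served as an alternative only. Culture was taken as 2 days, from the titles and design text, although the labels' treatment text gives shorter times.

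From the processed signal, log2 values were computed and the 75th percentile of non-control spots was subtracted per array. Outlier spots were dropped and the remaining spots averaged per probe. Accessions of 32994 of 56605 probes matched 22911 RefSeq symbols (GRCm38.p6), and 23611 kept the file's name. The probe with the highest mean stood for a gene, and genes were tested where that probe was well above background on both Irf4-/- arrays or both wild-type arrays. Genotypes were compared with limma 3.58.1 (R 4.3.3; lmFit and eBayes, with 2 residual and 2.95 prior degrees of freedom), Benjamini-Hochberg over 20505 genes and a threshold of 0.05. SE and 95% intervals are limma's moderated ones. The fit was run on simulated arrays whose set changes were far larger than any difference among the members. That run does not bear on differences of the members' size. The number of arrays limits the precision.

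All members were named. From each pathway list the text names the most negative and the most positive member above background on all 4 arrays, or those past the threshold; Myc was added after its values were seen, as were the rRNA and snoRNA host transcripts. Promoters were considered for the 6 members of smallest p with a window, and the 3 with a motif match are printed. The members and lists were chosen with earlier results of these data known. Same-numbered arrays deviated together at r = 0.35 over all tested genes, but the labels give no replicate numbers and there are 2 pairs, so the number marks slide row and no pairing. Alternatives were normexp (added after seeing the files, since they hold no mean signal), quantile and median scaling, the authors' table, 2 filters, the mean of a gene's probes, trend and robust settings, the row block and leaving out each array.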

Additional observations from a re-analysis of the deposited data

How the results depend on the processing

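Under 13 alternatives the 37 members gave 481 values, of which 0 passed limma's threshold (lowest adjusted p 0.302, with the replicate block, which equals slide row). Some of these settings, the replicate block among them, called no gene of the whole table, so no member could pass there. With no array left out, 2 members had an unadjusted p under 0.05 with normexp and 2 with the replicate block. Their number was 1 with trend and robust settings and 0 otherwise. With normexp 2364 of 20505 tested genes had such a p, a larger share than among the members. The share over all tested genes was also larger with the replicate block. The sign turned in 45 of the 481 values, and 15 members kept it throughout, among them Utp20, Rrp12, Cad, Tfb2m, Wdr12, Ncl, Ddx21, Nob1, Wdr43, Nop10 and Nop16. Median scaling turned Gnl3 (-0.0779), Polr1c (-0.0179), Nhp2 (-0.00385), Rrp9 (-0.0384), Bop1 (-0.11) and Wdr74 (-0.0151), a scaling that shifts every gene by 0.11. Normexp turned Nop56 (0.00342) and Pes1 (0.0229), the authors' table Bop1 (-0.0127), and the mean of all probes Nop56 (0.0655) and Rcl1 (0.00948). Leaving out each array in turn, which unbalances the rows, gave ranges across 0 of -0.12 to 0.0775 (Npm1), -0.38 to 0.00338 (Nolc1), -0.20 to 0.10 (Polr1b), -0.20 to 0.0785 (Fbl), -0.13 to 0.066 (Nop56), -0.41 to 0.0196 (Nop58), -0.23 to 0.10 (Dkc1), -0.29 to 0.0693 (Heatr1), -0.24 to 0.13 (Rcl1), -0.18 to 0.16 (Pes1), -0.10 to 0.0456 (Ppan), -0.21 to 0.0986 (Nip7), -0.24 to 0.0386 (Nop2), -0.24 to 0.11 (Rrs1), -0.22 to 0.16 (Ebna1bp2), -0.36 to 0.0681 (Srm), -0.11 to 0.32 (Nhp2), -0.11 to 0.25 (Rrp9), -0.13 to 0.13 (Bop1) and -0.0135 to 0.20 (Wdr74). The members' median lay between -0.23 and 0.03 when an array was left out and between -0.17 and -0.06 under the other alternatives.

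With an array left out, 1 genotype has 1 array, and the remaining arrays separate more easily. Members with all remaining Irf4-/- arrays below all remaining wild-type arrays then numbered 9 to 28, and those above 1 to 13. On all 4 arrays, quantile normalization put 13 below and 4 above. The mean of probes put 2 above, and median scaling put 3 below and 0 above. Shares over all tested genes under these settings are not given, so the counts are not read as a result about the members. Over the whole table the calls (higher and lower) were 460 and 300 with normexp, 594 and 448 with median scaling, 486 and 311 with trend and robust settings and 179 and 81 with the authors' table. They were 0 and 1 with quantile normalization, 0 and 0 without a filter on dim probes (2099 at an unadjusted p under 0.05) and 0 and 0 with the replicate block (3195 unadjusted). Leaving out an array gave 0 to 331 higher and 0 to 156 lower calls, with 0 in both directions without either wild-type array (1864 and 1678 unadjusted). The Irf4 difference passed with normexp (-0.73, adjusted p = 0.0272) and with trend and robust settings (-0.75, adjusted p = 0.0258), over a range of adjusted p from 0.0258 to 0.970, and 2 pathway genes (Odc1 and Mxi1) were called under the same 2 settings. The cause of these changes was not tested. With 2 arrays per genotype the intervals of the members allow differences of up to 2.15-fold, and a dim gene such as Utp18 gave no value.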
